A study of Bos taurus with 30 samples.

Results

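Genes of the ubiquitin and proteasome system were examined in peripheral white blood cells (PWBCs), the white cells that collect in the buffy coat when blood is spun, after the blood had been kept cold for up to 24 h. Members were the genes named in the part of the study's gene table used here whose description holds the word ubiquitin, proteasome, F-box or ring finger, without zinc finger or mitochondrial descriptions, and which the study's ontology tables do not list. Of 1630 genes in that part, 58 held one of the words and 57 remained. The exclusion of zinc finger descriptions removed ZNF598, and the ontology tables removed 0. All 57 had more than 1 CPM (the count scaled to the library's total, which the study also used in its filter) in all 30 libraries. They are 57 of the 14018 genes that passed the filter on low counts (more than 1 CPM in 5 or more libraries), lie on 23 chromosomes and are all annotated as protein coding. Their descriptions chose them, and measured levels did so only through filters. The study's own filter also asked for an FPKM (a level that allows for gene length) above 1 in 5 or more samples. All 1807 genes named in its tables passed the filter used here.

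The blood came from 5 crossbred Angus x Simmental beef heifers, called subjects A to E here. All had been brought into estrus with the same treatment of gonadotrophin-releasing hormone, a progesterone insert and prostaglandin F2α, and were bled at estrus into tubes with K2 EDTA that went onto ice. Each heifer gave 1 tube from the coccygeal vein (in the tail), processed at 1 h, and 5 tubes from the jugular vein (in the neck), processed after 1, 3, 6, 8 or 24 h at 4 °C, so that there were 5 libraries of coccygeal blood at 1 h, 5 of jugular blood at 1 h, 15 of jugular blood at 3, 6 or 8 h, and 5 of jugular blood at 24 h. For the 15 libraries of 3 to 8 h neither the hour nor the subject of a single library could be established, and they are given only as a range and a median. The groups thus share the breed, the hormone treatment and the stage of the cycle, and differ in vein or in hours of storage.

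Ubiquitin is a small protein that cells attach to other proteins. An activating enzyme (E1) charges it, a conjugating enzyme (E2) carries it, and a ligase (E3) passes it to a substrate, with HECT ligases taking ubiquitin onto themselves first and RING ligases bringing the E2 and the substrate together. F-box proteins pick the substrates of a large family of RING ligases, deubiquitinases remove ubiquitin again, and proteins with ubiquitin-binding domains read the mark. Chains of certain linkages send a protein to the proteasome, a barrel-shaped protease with a core of alpha and beta rings and a regulatory particle that recognises and unfolds the substrate. In immune cells, and more so under interferon, the core takes up alternative catalytic subunits and is then called the immunoproteasome, which cuts peptides for presentation on MHC class I.

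Total counts per library ranged from 12412619 to 19492274 (median 16925894 over the 30 libraries), and the counts of members in single libraries ranged from 23 to 13045, so the lowest were well above the 3 counts (0.154 to 0.242 CPM) below which a level could not be told from 0. This limit covers counting error only. Both 1 h tubes of a subject resembled each other more than tubes of different subjects did (Pearson's r across all tested genes 0.991 to 0.998 within a subject, mean 0.977 to 0.982 with the other subjects). PWBCs are a mixture, and in bulk RNA fewer cells of a type and less RNA per cell cannot be told apart. The defining markers of T cells (8 genes), B cells (1), monocytes (3), cytotoxic lymphocytes (3), eosinophils and basophils (3) and platelets and vessel wall (2) all passed the filter. The markers of these white cells were thus present, with RNA of platelets or vessel wall beside them, and neutrophil markers were not checked. From 1 h to 24 h all 8 T-cell markers had an edgeR FDR under 0.05 and fell, as did 2 of 3 monocyte markers, 2 of 3 markers of cytotoxic lymphocytes and 1 of 3 of eosinophils and basophils (GATA2). The B-cell marker did not pass, and both markers of platelets and vessel wall rose. The summed T-cell markers went from 1052 to 1609 CPM at 1 h to 626 to 1030 CPM at 24 h, the monocyte markers from 134 to 224 CPM to 101 to 123 CPM, and the markers of platelets and vessel wall from 478 to 915 CPM to 833 to 1412 CPM. Of the 20 marker genes, 13 are in ontology tables that the study drew from these same libraries, and the part of these shifts in the results below was not tested.

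The members were well expressed. Among the groups compared below, the proteasome subunits and partners had the highest median, and PSMB8 the highest level of all members. Several other proteasome members lay below the highest members of other groups. The mean level in jugular blood at 1 h ran from 2.34 CPM for the F-box/LRR-repeat protein 2 gene (ENSBTAG00000001287, no symbol) to 601 CPM for PSMB8, with a median of 43.1 CPM against 25.3 CPM for all genes tested. The study's own filter, which the members had also passed, favours a higher level. To compare genes, the CPM was divided by the transcript length in kb. By that measure the median was 47.5 CPM per kb for the 9 proteasome subunits and partners, 40.9 for the 2 activating and conjugating enzymes, 17.6 for the 5 HECT ligases, 13.5 for the 5 ubiquitin-binding and ubiquitin-like proteins, 12.6 for the 16 RING and other ligases and adaptors, 12.6 for the 10 deubiquitinases and relatives and 12.5 for the 9 F-box proteins. The medians of the last 4 groups are close together, and their members overlapped over nearly their whole range. ZFP36L2, an RNA-binding protein of mRNA decay that entered by the words ring finger in its description and has no known ligase role, stood at 90.3 CPM per kb and is counted among the 57 but in none of these groups.

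**Figure D1:**
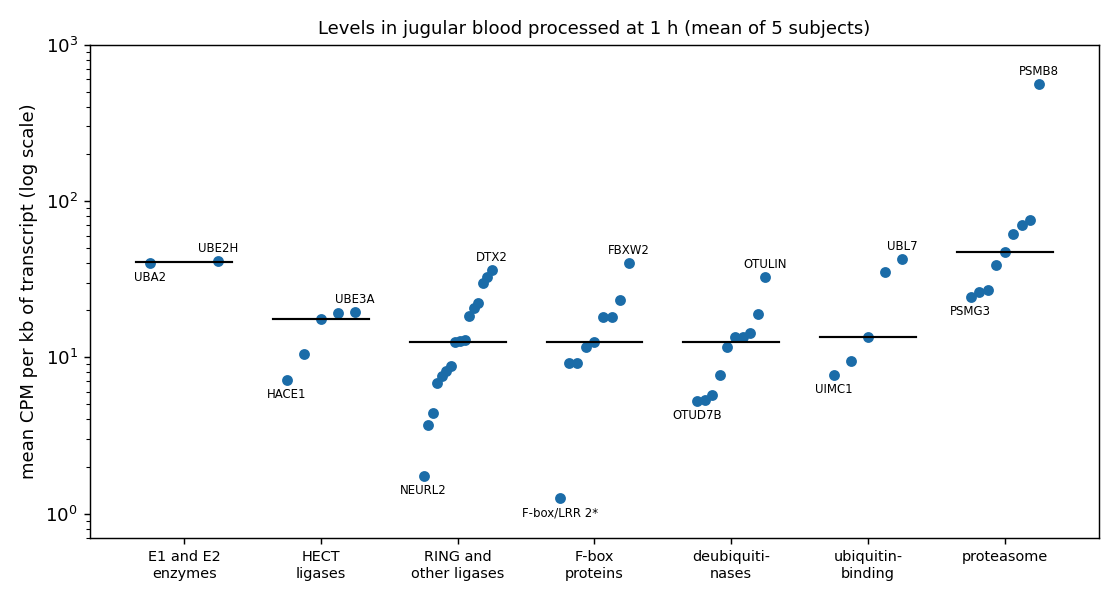
Mean level of each member in jugular blood processed at 1 h, in CPM per kb of transcript on a log axis, by role, with 1 point per member (mean of 5 subjects) and a line at the median of each role. PSMB8 at 556 CPM per kb stands above every other member, and NEURL2 (1.74) and the F-box/LRR-repeat protein 2 gene (1.25, marked with an asterisk) stand below the others. ZFP36L2 is not drawn.

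Levels varied within most roles, and least among the E1 and E2 enzymes. Among HECT ligases UBE3A, the ligase lost in Angelman syndrome, was highest at 19.3 CPM per kb and HACE1 lowest at 7.21. Among RING and other ligases DTX2, a Deltex ligase of Notch signalling, reached 36.2 CPM per kb and NEURL2, a Neuralized-type protein, 1.74. FBXW2 led the F-box proteins at 40.1 CPM per kb. OTULIN, which cuts linear ubiquitin chains, led the deubiquitinases at 32.7 and OTUD7B, also called Cezanne, was lowest at 5.23. UBL7, with a ubiquitin-like domain, was at 42.4 CPM per kb, and UIMC1 (RAP80), which brings the BRCA1 complex to ubiquitin at DNA breaks, at 7.72. UBE2H, an E2 enzyme, and UBA2, which is part of the E1 enzyme of the related modifier SUMO, were at 41.6 and 40.1.

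The comparison of jugular blood at 24 h with jugular blood at 1 h asks whether keeping the tube cold changes what is measured. For the ubiquitin and proteasome genes the measured changes were small. A transcript counted as changed when its Benjamini-Hochberg adjusted p (FDR) was under 0.05 in both edgeR's quasi-likelihood test and DESeq2's Wald test, with the subject as a block, and its absolute log2 fold change in edgeR was above 0.5. By this rule 0 of the 57 members changed, where 361 of the 14018 genes tested (2.58%) did. Among 57 genes a count of 0 is close to that share. edgeR alone or DESeq2 alone with the same limit on the fold change also gave 0 members. The log2 fold change farthest from 0 was that of LONRF3, at -0.496, while 1070 of all genes exceeded the limit. At an unadjusted p under 0.05 there were 14 members in edgeR, where 28.1% of all genes passed, and 10 in DESeq2, where 21.1% did.

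Without the limit on the fold change, 5 members passed edgeR's test. RNF215 and FBXL15 rose (2 of 57, where 6.03% of all genes did so) and UBASH3B, OTULINL and RNF169 fell (3 of 57, where 5.88% of all genes did so). DESeq2 gave an FDR under 0.05 to 4 members (10.4% of all genes), 3 of them among these 5 (UBASH3B, OTULINL and RNF215), and to ITCH. The median log2 fold change was 0.00 for the members and 0.01 for all genes, with 29 members above 0 and 28 below. The median absolute log2 fold change was 0.10 for the members and 0.14 for all genes. A 95% interval from DESeq2 (from its estimate and standard error on a normal scale) lay wholly between -0.5 and 0.5 for 46 members (80.7%), against 61.9% of all genes tested, a count chosen after the values were seen and one that favours well-expressed genes.

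**Figure D2:**
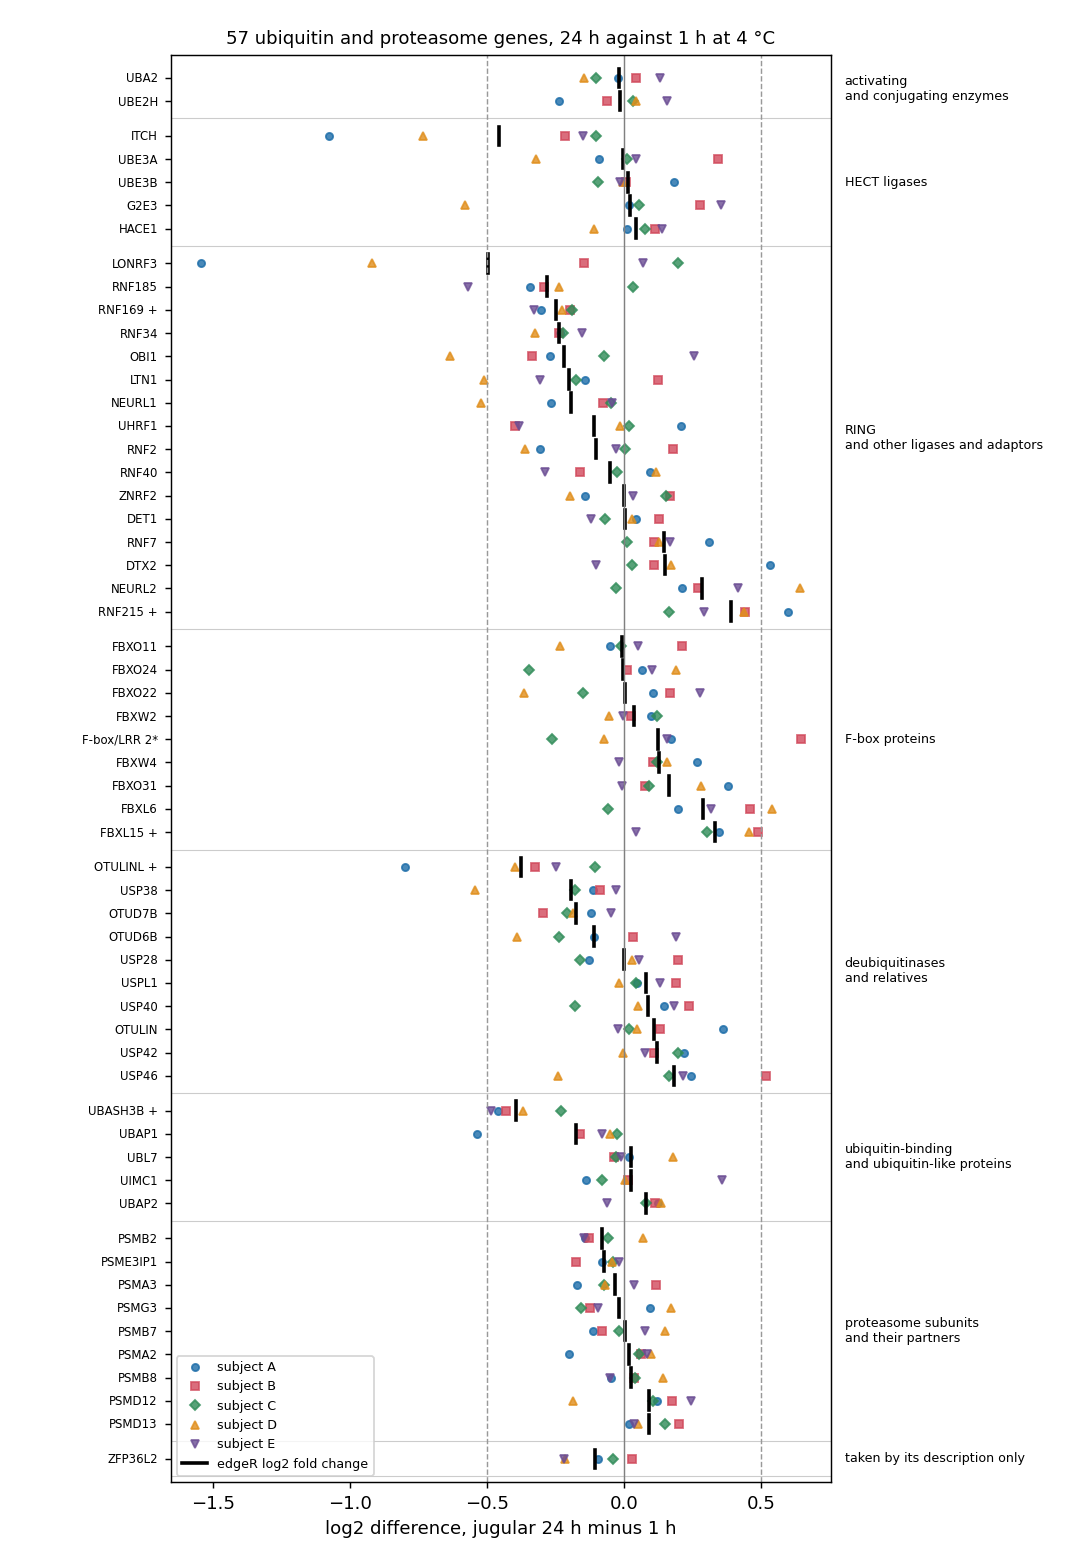
Log2 difference between 24 h and 1 h in jugular blood for the 57 members by role, with 1 marker per subject (ratio of CPM) and a black bar at the edgeR log2 fold change. Dashed lines stand at -0.5 and 0.5, a plus sign marks the 5 members with an edgeR FDR under 0.05, and the asterisk marks the F-box/LRR-repeat protein 2 gene. The bars of all members lie between the dashed lines, and the subjects of ITCH and LONRF3 spread farther than those of the proteasome subunits.

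The E1 and E2 enzymes among the members hardly moved. UBE2H had an edgeR log2 fold change of -0.01 (95% interval from DESeq2 -0.18 to 0.14) and UBA2 of -0.02 (-0.17 to 0.13). Neither passed any test, and in each the subjects went both ways.

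Of the 5 HECT ligases, 0 passed edgeR's test and 1, ITCH, passed that of DESeq2. The other 4 had edgeR log2 fold changes between -0.00 (UBE3A) and 0.05 (HACE1). ITCH, a ligase known for restraining T-cell activation and inflammatory signalling (chromosome 13, 63816189 to 63881729 of ARS-UCD1.2), is named here after its values were seen. In jugular blood at 1 h it stood at 55.5, 41.0, 47.1, 58.8 and 46.7 CPM in subjects A to E. After 24 h it stood at 26.3, 35.3, 43.9, 35.3 and 42.1 CPM. All 5 subjects were lower at 24 h, A and D by far the most (log2 differences of -1.08 and -0.73, against -0.10 to -0.21 in the others), and the 2 groups overlapped. The mean went from 49.8 ± 7.20 to 36.6 ± 6.96 CPM (SD, n = 5), and the log2 fold change was -0.45 in edgeR (FDR = 0.0893) and -0.46 ± 0.13 (SE) in DESeq2 (FDR = 0.0092). Without subject A the edgeR log2 fold change was -0.30 and the DESeq2 FDR 0.121, and without subject D they were -0.38 and 0.122. Without B, C or E the edgeR log2 fold change was between -0.54 and -0.52. There the DESeq2 FDR was 0.00564 to 0.0212 and the edgeR FDR 0.0723 to 0.126. At 3 to 8 h the 15 libraries ran from 35.6 to 64.7 CPM with a median of 43.7. In the same jugular tubes at 1 h the summed monocyte markers were highest in A (224 CPM) and D (170 CPM), against 134 to 137 CPM in the other 3 subjects, but in coccygeal blood C (179 CPM) stood above D (171 CPM). The summed markers of cytotoxic lymphocytes in jugular blood at 1 h were also highest in D (355 CPM) and A (327 CPM), against 203 to 285 CPM, while in coccygeal blood D (363 CPM) and C (354 CPM) stood above A (294 CPM). The summed T-cell markers went from 1251 to 626 CPM in A and from 1052 to 818 CPM in D, where they were lowest at 1 h. The part of these markers in the ITCH values was not tested.

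Among the 16 RING and other ligases and adaptors 1 rose and 1 fell, near the shares of all genes given above, and 10 had log2 fold changes below 0, where 6739 of all 14018 genes did. The median of the group was -0.11 and its range -0.50 to 0.39. RNF215, a membrane RING finger protein (chromosome 17, 69378978 to 69382634), was at 16.4, 16.3, 16.6, 15.5 and 17 CPM in subjects A to E at 1 h. At 24 h it was at 24.9, 22.2, 18.6, 21.0 and 20.8 CPM. Every 24 h library lay above every 1 h library of the jugular vein. In coccygeal blood at 1 h subject A was at 19.2 CPM, above the 24 h value of subject C. The mean went from 16.4 ± 0.547 to 21.5 ± 2.31 CPM (SD, n = 5), a log2 fold change of 0.39 (edgeR FDR = 0.0177, DESeq2 FDR = 0.0197). The edgeR FDR was 0.0654, 0.0565 and 0.0512 without subjects A, B and D.

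RNF169, which binds ubiquitin at DNA double-strand breaks (chromosome 15, 54063709 to 54147686), was the steadiest of the members that fell. It was at 28.3, 28.1, 25.0, 26.2 and 28.6 CPM at 1 h and at 22.9, 24.5, 21.9, 22.4 and 22.8 CPM at 24 h in subjects A to E. The 2 groups did not overlap, and the log2 differences of single subjects were close together, between -0.33 and -0.19. The mean went from 27.2 ± 1.57 to 22.9 ± 0.977 CPM (SD, n = 5), a log2 fold change of -0.25 (edgeR FDR = 0.0408, DESeq2 FDR = 0.116). With any 1 subject left out the edgeR FDR was between 0.0749 and 0.121. In coccygeal blood at 1 h, 4 subjects were at 27.8 to 28.4 CPM and subject A at 24.0.

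In jugular blood, non-overlap of the 5 values at 1 h and the 5 at 24 h was found in 3 members, RNF215, RNF169 and RNF34, where 3.9% of all genes tested had it. RNF34, a RING ligase that acts on caspases, was at 15.5 to 17.7 CPM at 1 h and 13.1 to 15.2 CPM at 24 h in jugular blood. It was lower in 5 of 5 subjects, with a log2 fold change of -0.23 (edgeR FDR = 0.0784, DESeq2 FDR = 0.254). In coccygeal blood at 1 h RNF34 ran from 12.8 to 20.4 CPM, and subject C, at 12.8 CPM, was below every 24 h value. The member with the largest fold change, LONRF3, did not pass either test. LONRF3, a LON-domain RING finger protein on chromosome X, was at 21.9, 9.42, 6.46, 10.4 and 9.10 CPM at 1 h and at 7.49, 8.51, 7.41, 5.49 and 9.55 CPM at 24 h. Subjects A and D were lower at 24 h, B slightly lower, and C and E slightly higher. Its log2 fold change of -0.50 (edgeR FDR = 0.263, DESeq2 FDR = 0.17) was -0.20 without subject A. LTN1 (listerin), which marks chains stuck on stalled ribosomes, had a log2 fold change of -0.20 (edgeR FDR = 0.146) and DTX2 and NEURL2 of 0.15 and 0.29 (edgeR FDR = 0.268 and 0.262).

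Of the 9 F-box proteins 1 rose. Their median log2 fold change was 0.13, with 7 of 9 above 0, where 7279 of all 14018 genes were above 0. FBXL15, the substrate receptor that marks the ligase Smurf1 for degradation (chromosome 26, 23043063 to 23046230), was at 8.62, 11.3, 9.26, 13.5 and 14.8 CPM at 1 h. At 24 h it was at 11.0, 15.9, 11.4, 18.5 and 15.3 CPM. Each subject was higher at 24 h than at 1 h, E only slightly, and the groups overlapped. The mean went from 11.5 ± 2.66 to 14.4 ± 3.18 CPM (SD, n = 5), a log2 fold change of 0.33 (edgeR FDR = 0.046, DESeq2 FDR = 0.13). The edgeR FDR was 0.0909 to 0.135 without subject A, B, C or D, 0.172 in a single fit of the 15 libraries of known time and 0.0538 with no filter on low counts. Coccygeal blood of subject A, at 14.9 CPM, was above its own 24 h value. FBXW2 had a log2 fold change of 0.04 and the F-box/LRR-repeat protein 2 gene of 0.13, the latter with the widest interval in the group (-0.46 to 0.71) at 2.34 CPM.

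Of the 10 deubiquitinases and relatives 1 fell. OTULINL, a relative of OTULIN without its catalytic activity, lies beside it on chromosome 20 (OTULIN 58493751 to 58560795, OTULINL 58565052 to 58594909, 4256 bases apart on the same strand). OTULINL was at 34.0, 22.8, 35.7, 49.3 and 37.9 CPM at 1 h in subjects A to E. At 24 h it was at 19.5, 18.2, 33.3, 37.4 and 32.0 CPM. It was lower at 24 h in 5 of 5 subjects, most of all in A, and the groups overlapped. The mean went from 36.0 ± 9.47 to 28.1 ± 8.65 CPM (SD, n = 5), a log2 fold change of -0.37 (edgeR FDR = 0.0319, DESeq2 FDR = 0.016). Without subject A, B, D or E the edgeR FDR was between 0.0662 and 0.0865, and without A the log2 fold change was -0.27.

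The neighbouring OTULIN did not pass and was higher at 24 h in 4 of 5 subjects, with 84.8, 87.6, 80.3, 94.1 and 107 CPM at 1 h and 109, 96.1, 81.3, 97.4 and 105 CPM at 24 h (log2 fold change 0.11, edgeR FDR = 0.306). The log2 change of OTULINL was below that of OTULIN in 5 of 5 subjects, by 0.48 on average (SD 0.41, n = 5). This pair was compared after its values were seen, so no test is given. Among the others OTUD7B and USP38 (the latter named after its values were seen) were lower in 5 of 5 subjects without passing (log2 fold changes -0.17 and -0.19), and USP28, a stabiliser of MYC, was at -0.00 with an interval of -0.19 to 0.18.

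Of the 5 ubiquitin-binding and ubiquitin-like proteins 1 fell, and it had the smallest FDR of all members. UBASH3B (also called STS-1), a phosphatase with a ubiquitin-binding domain that dampens signals from the T-cell receptor (chromosome 15, 33291675 to 33440714), was at 31.7, 35.2, 33.1, 23.9 and 26.8 CPM at 1 h in subjects A to E. At 24 h it was at 23.0, 26.1, 28.2, 18.5 and 19.2 CPM. All 5 subjects were lower by similar amounts (log2 differences -0.48 to -0.23), whereas the levels of D and E were below those of A, B and C at both times, so the groups overlapped. The mean went from 30.1 ± 4.66 to 23.0 ± 4.24 CPM (SD, n = 5), a fold change of 0.764 and a log2 fold change of -0.39 (edgeR FDR = 0.00987, DESeq2 FDR = 0.00497). With any 1 subject left out the edgeR FDR stayed between 0.0182 and 0.0358. At 3 to 8 h the median was 30.3 CPM (20.2 to 34.0 over 15 libraries), close to the level at 1 h. UBAP1, a subunit of the ESCRT-I sorting complex, was lower in 5 of 5 subjects without passing (log2 fold change -0.17, edgeR FDR = 0.173), with subject A at -0.54.

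**Figure D3:**
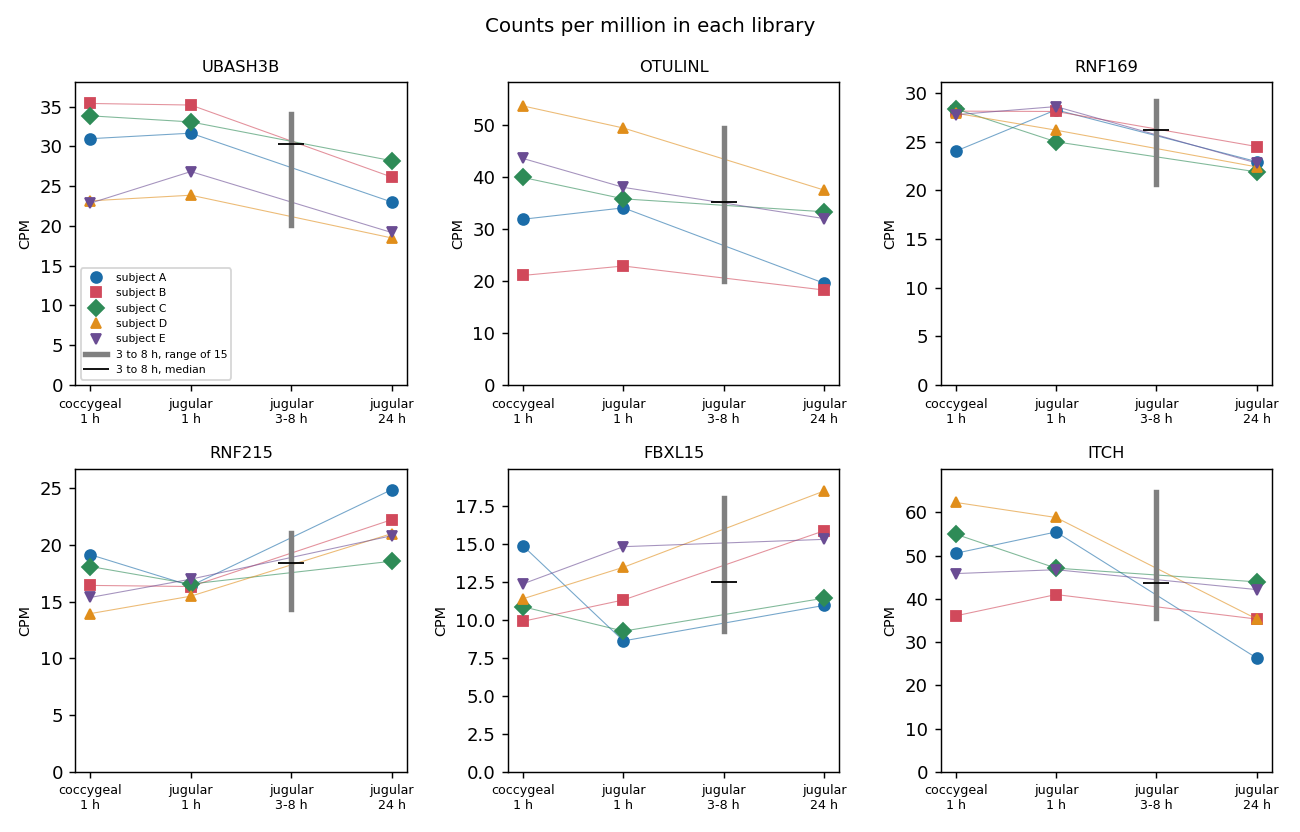
CPM of 6 members in each library, with subjects A to E as markers joined by lines across coccygeal 1 h, jugular 1 h and jugular 24 h, and with the 15 jugular libraries of 3 to 8 h as a bar from lowest to highest and a dash at the median. UBASH3B falls in parallel in all 5 subjects between 1 h and 24 h, while most of the fall of ITCH lies in subjects A and D.

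The measured changes of the proteasome subunits and partners with storage were small. Of these 9 members 0 passed edgeR's or DESeq2's test, where 11.9% and 10.4% of all genes did, and 0 had an unadjusted p under 0.05, where 28.1% and 21.1% of all genes did. Among 9 genes a count of 0 at the FDR threshold is close to those shares, and the intervals carry the description. The edgeR log2 fold changes ran from -0.08 (PSMB2) to 0.09 (PSMD13), and no 95% interval from DESeq2 reached beyond -0.27 or 0.27. The CPM of the 9 genes, added up, was 1064, 1090, 1007, 1131 and 1093 in subjects A to E at 1 h and 1021, 1117, 1030, 1208 and 1082 at 24 h. It was higher at 24 h in B, C and D and lower in A and E, with changes between -4.04% and 6.82%.

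In the core, PSMB8 is the immunoproteasome subunit that replaces PSMB5. PSMB8 (chromosome 23, 7173038 to 7176410) was at 584, 623, 540, 626 and 632 CPM at 1 h and 566, 640, 556, 692 and 610 CPM at 24 h. The groups overlapped almost fully, with means of 601 ± 38.6 and 613 ± 55.4 CPM (SD, n = 5). The log2 fold change of PSMB8 was 0.03 (95% interval -0.10 to 0.15, edgeR FDR = 0.798). Per kb of transcript it exceeded PSMB7, a constitutive catalytic subunit of the same ring, by 8.08 times in the median of 30 libraries (6.79 to 8.85). It exceeded the non-catalytic PSMB2 by 9.25 times (8.12 to 11.2) and the alpha-ring subunits PSMA2 and PSMA3 by 12.0 (9.93 to 14) and 7.93 times (5.96 to 9.01). The ratio to PSMB7 had a median of 7.88 at 1 h and 8.06 at 24 h, and the values overlapped. PSMB7, PSMA2 and PSMA3 had log2 fold changes of 0.00, 0.02 and -0.03.

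Of the regulatory particle, PSMD13 was at 83.9 to 87.8 CPM at 1 h and 86.2 to 98.0 CPM at 24 h and was higher in 5 of 5 subjects, but its log2 fold change of 0.09 did not pass (edgeR FDR = 0.303). The span of COX8B, on the other strand, overlaps that of PSMD13, and since counting ignored the strand, reads where they overlap cannot be told apart. Whether their exons overlap was not checked. Overlaps were looked for only among the genes named in the study's tables. PSMD12 was at 0.09 as well, higher in 4 of 5 subjects and lower in D. PSMG3, an assembly chaperone of the core, and PSME3IP1, which binds the proteasome activator PSME3, were at -0.02 and -0.07.

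At 3 to 8 h the members as a whole had summed levels close to those at 1 h. The CPM of the 57 genes, added up, was 3472 to 3668 at 1 h (median 3521), 3459 to 3686 in the 15 libraries of 3 to 8 h (median 3578) and 3391 to 3625 at 24 h (median 3555). For 30 of the 57 the median of 3 to 8 h lay between the means of 1 h and 24 h, a share (52.6%) equal to that of all genes (52.6%). RNF169 was at 20.7 to 29.2 CPM (median 26.2), RNF215 at 14.3 to 21.1 (median 18.5), FBXL15 at 9.27 to 18 (median 12.5) and OTULINL at 20.0 to 49.4 (median 35.2). In these 4 the median of 3 to 8 h was nearer the mean of 1 h than that of 24 h.

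Other genes of the pathway, chosen by name, were counted in the same way. They included ubiquitin receptors, cullin adaptors, subunits of the anaphase-promoting complex and the COP9 signalosome, TRIM ligases and SUMO enzymes. Also among them were the E2 enzyme CDC34, MARCHF6, TRAF1, BRAP and ZNF598, which its zinc finger description had kept out of the members. Of these 36 genes, 0 changed by the full rule (2.58% of all genes), 2 rose and 2 fell in edgeR (6.03% and 5.88% of all genes), and 3 passed in DESeq2 (10.4%), so that the counts are near those shares. The median log2 fold change was -0.01 and the range -0.50 to 0.39. ZNF598, the ligase that senses collided ribosomes, rose from 86.7 ± 6.99 to 105 ± 5.99 CPM (SD, n = 5, log2 fold change 0.28, edgeR FDR = 0.0150, DESeq2 FDR = 0.00667, higher in 5 of 5 subjects). CDC34 rose from 64.7 ± 3.77 to 77.3 ± 5.42 CPM (log2 fold change 0.26, edgeR FDR = 0.0345, DESeq2 FDR = 0.0283, higher in 4 of 5). TRIM24, a chromatin-reading TRIM protein, fell from 34.1 ± 1.83 to 28.7 ± 2.79 CPM (log2 fold change -0.25, edgeR FDR = 0.0450, DESeq2 FDR = 0.0891, lower in 5 of 5). Of 11 chaperone genes, among them HSP90AB1 and 8 of the DNAJ family, 0 passed in edgeR or DESeq2 (11.9% and 10.4% of all genes) and 0 had an unadjusted p under 0.05 in either (28.1% and 21.1%), and at the FDR threshold a count of 0 among 11 is near the share. Their log2 fold changes lay between -0.11 and 0.15.

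The vein was compared at 1 h in the 10 coccygeal and jugular libraries of the same subjects. No member differed, as 0 of 57 had an FDR under 0.05 in edgeR or DESeq2 and 0 an unadjusted p under 0.05 in either. Of all genes 0 (0%) differed, with 278 at an unadjusted p under 0.05 in edgeR and 101 in DESeq2. The log2 fold changes of the members, coccygeal minus jugular, lay between -0.14 and 0.12, with a median of -0.01. LTN1 had the smallest p and the largest difference, with 56.0, 65.9, 66.3, 85.7 and 59.5 CPM in coccygeal blood and 66.3, 64.4, 83.5, 88.1 and 65.1 CPM in jugular blood of subjects A to E. It was lower in the tail vein in 4 of 5 subjects (log2 fold change -0.14, 95% interval from DESeq2 -0.30 to 0.03, edgeR p = 0.063 and FDR = 1). OTUD7B at -0.13 and HACE1 at -0.12 were next, with 95% intervals of -0.39 to 0.13 and -0.33 to 0.11. A p above the threshold does not show that the veins are alike, and the intervals give the differences that these 5 pairs allow.

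Many members differed between heifers. In edgeR's test of the 4 subject terms over the 10 libraries of 1 h, 21 of the 57 members (36.8%) had an FDR under 0.05, where 35.6% of all genes tested did. With all 5 subjects the share among the members is close to that of all genes. The range between the highest and the lowest subject, taken on the mean of both veins, had a median of 0.42 on the log2 scale over the members, against a median absolute storage change of 0.10, and over all genes these medians were 0.50 and 0.14. The range exceeded the absolute storage change in 53 of 57 members, all but RNF215, RNF169, RNF34 and RNF185 (the last named after its values were seen), and in 94.9% of all genes. A range of 5 values also holds the noise of single tubes, so this sets 2 descriptions side by side and is no test.

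The result rests largely on subject D. Without D, 2 of 57 members and 1818 of all genes (13%) were below an FDR of 0.05, so that the shares were no longer close, while without each of the others 16 to 28 members did. Of the 21 members, D was the highest subject in 9 and the lowest in 9. By role, with all 5 subjects, 4 of 5 HECT ligases, 5 of 10 deubiquitinases, 3 of 5 ubiquitin-binding proteins, 4 of 9 F-box proteins, 4 of 16 RING and other ligases, 1 of 2 E1 and E2 enzymes and 0 of 9 proteasome members differed between subjects. In that fit 35.6% of all genes tested did, and the roles, which are small, were not tested against this share. Under another scaling (TMM) PSMA3 and PSMB2 also had an FDR under 0.05, as they had in DESeq2's likelihood ratio test (FDR = 0.0214 and 0.0315). PSMA3 also passed in edgeR with no filter on low counts (FDR = 0.0464), without subject C (0.0118) and without subject E (0.0478), and PSMD12 without subject C (0.0151). The 0 of 9 thus holds under some settings and not under others.

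OTULINL had the smallest p. Its mean of the 2 tubes at 1 h was 32.9, 21.9, 37.8, 51.5 and 40.7 CPM in subjects A to E, a 2.34-fold range (edgeR p = 5.5e-06, FDR = 0.000218). Both tubes of B were at 21.0 to 22.8 CPM and both tubes of D at 49.3 to 53.6 CPM, and B remained the lowest and D the highest at 24 h. FBXO24, an F-box protein of unsettled substrates, was at 9.31 and 9.35 CPM in the 2 tubes of D and at 13 to 22.3 CPM in the other subjects, a 2.23-fold range of subject means (edgeR FDR = 0.00138, and 0.144 without D). D was at 10.7 CPM at 24 h, again the lowest, and the storage log2 fold change was -0.00.

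UBAP1 was at 126 and 142 CPM in subject A and at 77.5 to 97.0 CPM in the others (edgeR FDR = 0.00305). Without subject A the FDR was 0.722, so that the difference lay in A. UBE3B, a HECT ligase, was highest in B (106 and 108 CPM) and lowest in D (71.1 and 73.7 CPM), with 24 h values of 106 and 73.5 CPM in those subjects (edgeR FDR = 0.00426, and 0.0653 without D). UBASH3B was 1.5-fold higher in B than in D (edgeR FDR = 0.00651, and 0.0794 without D).

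The largest p values between subjects belonged to RNF169 (1.08-fold range, edgeR p = 0.896), PSMD13 (1.08-fold, p = 0.848), USP28 (p = 0.823), RNF34 (1.18-fold, p = 0.702) and FBXW2 (1.09-fold, p = 0.656), all from edgeR. RNF169 had the largest p between subjects of the 57 members and fell with storage by edgeR's test. UBASH3B and OTULINL were the 2 members that passed both tests, between subjects and with storage.

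**Figure D4:**
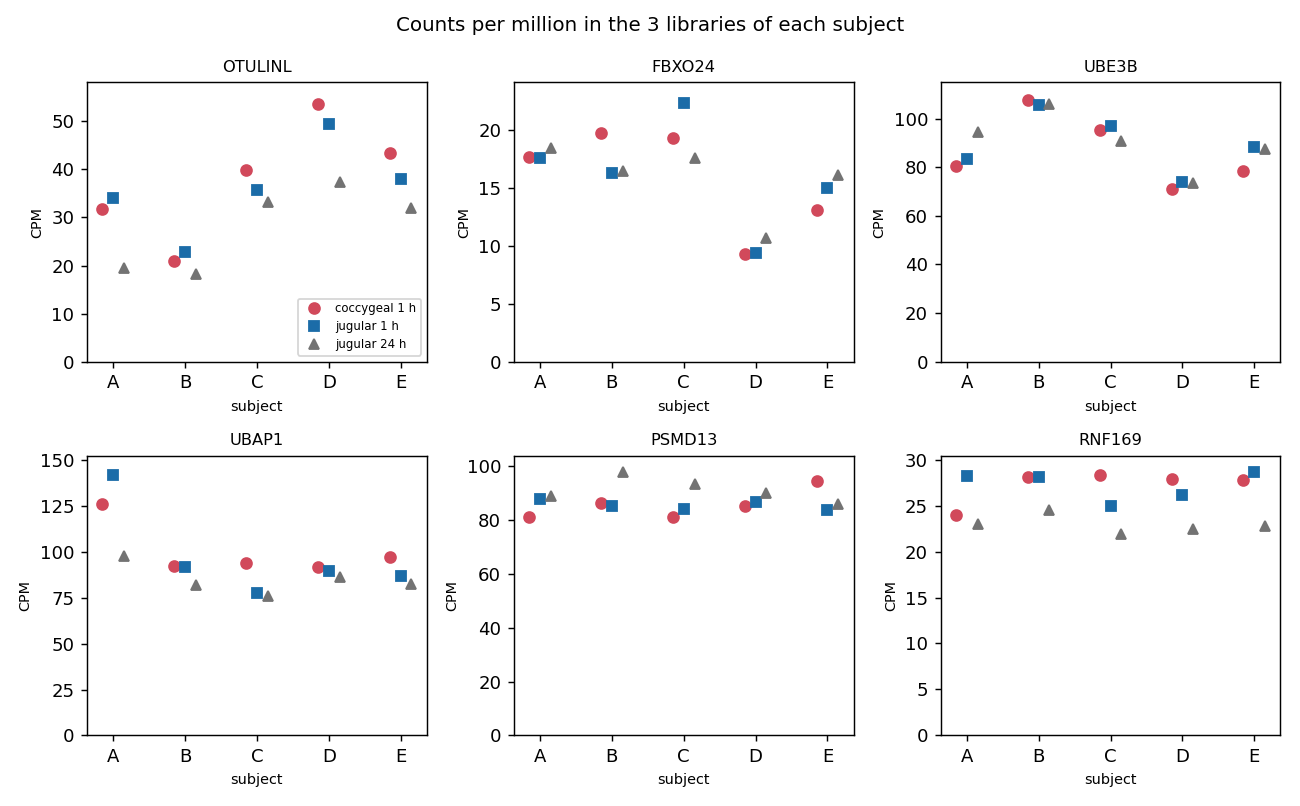
CPM of 6 members in subjects A to E, with the coccygeal 1 h (circle), jugular 1 h (square) and jugular 24 h (triangle) library of each. The 4 members with the smallest p between subjects are OTULINL (D highest and B lowest in each kind of library), FBXO24 (D lowest), UBAP1 (A highest) and UBE3B (B highest and D lowest), and PSMD13 and RNF169 have the largest p. The 1 h values of RNF169 lie between 24.0 and 28.6 CPM, and its 24 h values between 21.9 and 24.5 CPM.

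**Figure D5:**
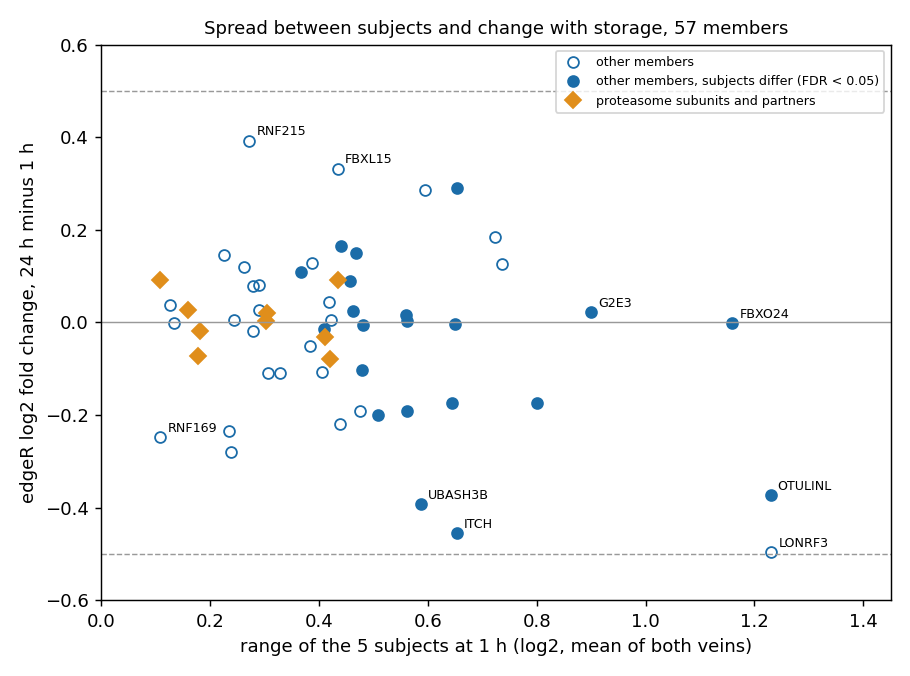
Range between the 5 subjects at 1 h (log2, mean of both veins) against the edgeR log2 fold change from 1 h to 24 h for the 57 members. Diamonds are the proteasome subunits and partners, filled circles the 21 members with an FDR under 0.05 between subjects, and dashed lines stand at -0.5 and 0.5. The proteasome members lie near the horizontal line at 0, and FBXO24 differs widely between subjects at a storage change of -0.00.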

How the data were processed

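RNA of PWBCs of 5 heifers was sequenced in 30 libraries. The authors trimmed adapters (cutadapt 2.8), aligned read pairs to ARS-UCD1.2 (HISAT2 2.2.0), filtered alignments (SAMtools 1.10), dropped duplicates and assigned fragments to Ensembl genes with featureCounts (Subread 2.0.1). The deposited values are these counts, not normalized, of 27607 genes. Per the supplementary code, counting ignored the strand although the kit keeps it, so reads where genes overlap cannot be told apart by strand. That code also gave vein, time and subject of 15 columns, and the remaining 15 were taken as 3 to 8 h by elimination. All 30 columns were used (0 not used). Gene names, positions and lengths came from the study's tables, and no other value of those tables was used. Members, lists and tests were chosen with earlier results of these data known.

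From the counts, CPM used library totals over all genes. Genes above 1 CPM in 5 or more libraries were kept (14018). edgeR 4.0.16 (quasi-likelihood, robust, library size as the only scaling) and DESeq2 1.42.0 (Wald) were run in R 4.3.3. Each fit used the 10 libraries of a comparison with the subject as a block, because same-subject libraries deviate together from their group means. The lowest same-subject correlation was 0.54 between times and 0.41 between veins, and the highest for different subjects 0.14 and 0.09. The mean for different subjects (-0.15 and -0.16) is negative because deviations were taken from group means. Subjects were compared by edgeR's F-test at 1 h. P-values were adjusted over all genes tested. The scripts were tested on simulated data. Intervals of 95% come from the estimate and standard error of DESeq2.

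Named members are those that passed edgeR's storage test in the same direction in 5 of 5 subjects, all proteasome members, the highest and lowest level per kb of each role, the 5 smallest and 5 largest p between subjects, and the 3 largest differences between veins. ITCH, LONRF3 and others said to be so were chosen after their values were seen. Each subject gave 1 tube per vein and time. The p-values of storage and of vein rest on the spread of within-heifer differences over 5 heifers. Those between subjects set the heifers against the spread between both 1 h tubes of a heifer, which came from different veins. Alternatives were TMM scaling, each tool alone, other fold limits and filters, estimation that is not robust, the newer fit of edgeR, no replicate block, 1 fit of 15 libraries, DESeq2's likelihood ratio test between subjects, and each subject left out. RNA integrity and transcript coverage were not analysed here, and the part of the lower RNA integrity at 24 h in the storage results was not tested. No sequence of a member is printed, since none was used here.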

Additional observations from a re-analysis of the deposited data

Results flagged for a closer look

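Among the named members, 140 groups of 5 values (CPM in coccygeal blood at 1 h, jugular blood at 1 h and jugular blood at 24 h, and the log2 differences of single subjects between 24 h and 1 h) were searched for a value far from the other 4, by Dixon's ratio with its critical value of 0.71. There were 11 such values. Chance gives about 1 in 20 groups, but some members were named for these same values (UBAP1 by its p between subjects, LONRF3 after its values were seen), so the count is not set against that rate.

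Subject A held 7 of the 11. UBAP1 in A was at 126 CPM in coccygeal blood (others 91.5 to 97.0) and at 142 CPM in jugular blood at 1 h (others 77.5 to 91.8), and its log2 difference between 24 h and 1 h in A was -0.54 (others -0.16 to -0.03). LONRF3 in A was at 21.9 CPM in jugular blood at 1 h (others 6.46 to 10.4), and UBE2H in A at 115 CPM (others 90.1 to 94.7). RNF169 in A was at 24.0 CPM in coccygeal blood (others 27.8 to 28.4). The log2 difference of PSMA2 between 24 h and 1 h was -0.20 in A and 0.06 to 0.10 in the others. The summed monocyte markers of A were 206 CPM in coccygeal and 224 CPM in jugular blood at 1 h and 117 CPM at 24 h, and their part in these values was not tested.

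The other 4 were single values. UBE3A in subject D was at 117 CPM in coccygeal blood (others 74.0 to 78.9). The log2 difference of UBL7 was 0.18 in D (others -0.03 to 0.02). PSMB7 in subject E was at 94.4 CPM in coccygeal blood (others 69.9 to 75.1). HACE1 in subject C was at 32.4 CPM in jugular blood at 24 h (others 25.5 to 27.5).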

How the results depend on the processing

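No member changed by the full rule between 24 h and 1 h under any alternative that kept a limit on the fold change, and 3 did without one. No member changed between veins under any alternative. With each subject left out in turn, 0 to 2 members rose and 1 to 2 fell in edgeR's storage test. Without the replicate block 0 rose and 0 fell, and 30 of all genes instead of 361 changed. With no filter on low counts 1 rose. In DESeq2 alone 1 rose. Leaving out a subject moved the count of changed genes among all tested to between 156 (A) and 396 (C), no limit on the fold change gave 1301 and a limit of 1 gave 27. The median log2 fold change of the members stayed between -0.02 and 0.02. Members that differ between subjects numbered 2 to 28 with a subject left out, 2 without D, and 21 to 25 under the other alternatives. For storage, 463 of 490 values of named members under alternatives kept their side of edgeR's threshold, 26 lost a pass and 1 (ITCH in DESeq2) gained one, and no passing value changed direction. Between veins all 490 kept their side. Between subjects 352 of 385 did. With 5 heifers and totals of 12412619 to 19492274 counts, the lowest count of a member in any library was 23.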

Other observations

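Members that were highest in subject D at 1 h among those that differed between subjects came down in D with storage. These 9 members were FBXO11, G2E3, ITCH, UBE3A, LTN1, RNF2, ZNRF2, OTULINL and USP38, that is 6 ligases, an F-box protein and 2 deubiquitinase-type proteins. All 9 were lower at 24 h than at 1 h in D (median log2 difference -0.40, from -0.73 to -0.20). In 7 of them the log2 difference of D, not its level, was below that of all 4 other subjects. Over the 9 members, the medians of the log2 differences of the other subjects had a median of -0.01. G2E3 in D was at 41.3 CPM in coccygeal blood and 34.5 CPM in jugular blood at 1 h and at 23.1 CPM at 24 h, and USP38 at 55.4, 53.3 and 36.6 CPM. Of the 9 members lowest in D, 6 were higher at 24 h in D and 3 lower (median 0.17). Among all genes that differed between subjects, 88.7% of the 1483 highest in D were lower at 24 h in D and 70.6% of the 1558 lowest in D were higher, so the members moved in D much as other genes did. These members were named after their values were seen. The span of FBXO11 overlaps that of MSH6 on the other strand, and since counting ignored the strand, reads where they overlap cannot be told apart. The jugular library of D at 1 h enters both the choice of these members and the difference, so no test is given.

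Of the 15 libraries of 3 to 8 h, 1 stood apart. It was singled out after its LONRF3 level of 45.7 CPM was seen, against 3.86 to 19.3 CPM in the other 14. It also held the highest UBAP1 (191 CPM, others 81.6 to 125), UBE2H (147 CPM, others 77.0 to 109) and ITCH (64.7 CPM, others 35.6 to 52.4). Within this group of 15 it had the highest level of 6 and the lowest level of 19 of the 57 members, where it was highest in 10.4% and lowest in 28.4% of all genes tested, so that these counts are near those of all genes. Among the 19 were 7 of the 9 proteasome members, with PSMB8 at 546 CPM (others 560 to 700) and PSMA2 at 56.8 CPM (others 62.5 to 81.3). Its summed monocyte markers were 332 CPM (others 91.8 to 209) and its summed T-cell markers 910 CPM (others 938 to 1562). UBAP1, LONRF3 and UBE2H are the members that were also high in subject A at 1 h. The storage time and heifer of this library were not established, and the part of its cell markers in these values was not tested.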
